A study of Mus musculus with 6 samples.

Results

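A set of 10 genes of fatty acid handling were followed in C3H10T1/2 cells after a short exposure to a glucocorticoid: Fabp4, Fabp5, Cd36, Lpl, Angptl4, Acsl1, Lpin1, Pnpla2, Cidec and Pdk4. They were taken from the deposited values as every probe whose sole gene symbol was one of these names, which gave 17 of the 38467 probes. Of the 10 genes, 9 had a probe, Acsl1 had none, and 8 were read at least 2 times in vehicle and 2 times in dexamethasone, among 27046 genes and unnamed probes that met this minimum. The genes were chosen with their dexamethasone-to-vehicle contrast in these data already known, so their values in that contrast are a description and carry no test.

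C3H10T1/2 is a mouse mesenchymal cell line able to form adipocytes and other connective tissue cells. It was grown in DMEM with serum, and 3 cultures received 1 µM dexamethasone, a synthetic glucocorticoid, while 3 received the solvent DMSO (vehicle), both sampled at 90 minutes and described as biological replicates. Both groups are the same unmodified line, with no genotype difference, and were not induced to differentiate as far as the labels say. Each array carried 1 culture in Cy3 against a shared pool of C3H10T1/2 RNA in Cy5; the sample labels give the pool as RNA after DMSO, dexamethasone or myostatin, and the series text leaves out myostatin. A value is therefore a log2 ratio to that pool and not a level, and it does not show whether a gene or a cell type marker is abundant in the line. Fewer cells of a kind and less RNA per cell cannot be told apart in such bulk samples.

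Fatty acids reach cells from circulating lipoproteins, whose triglycerides are cut by lipoprotein lipase at the cell surface; the secreted protein ANGPTL4 inactivates that enzyme. Inside the cell, fatty acid binding proteins carry the released acids, acyl-CoA synthetases activate them, lipins act on the path to triglyceride, droplet proteins guard the store and lipases empty it again. Many of these genes respond to the PPAR family of nuclear receptors, and glucocorticoids are classical inducers of adipocyte differentiation as well as of fat mobilisation in mature fat tissue.

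The arrays were unequal. Vehicle 3, dexamethasone 2 and dexamethasone 3 had medians of 0.16, 0.57 and 0.41, against -0.12 to -0.10 on the other 3 arrays, and 7.73% to 12.7% of their values equalled the log2 of a ratio of whole numbers from 1 to 10, as very dim spots give, against 1.86% to 3.79%. Such values and their spots are called dim below, though the brightness of the spots was not read. A brighter spot can also give such a value by coincidence, and how often was not estimated. Differences are dexamethasone minus vehicle throughout; their median over all features was 0.32 as deposited, 0.02 after median centring of each array and -0.03 after quantile normalization. The lowest Spearman correlation between 2 arrays over all probes was -0.33. Turning the ratio on every array would leave such correlations unchanged, so they cannot settle its direction. Sample over pool was taken as likely because all 6 known glucocorticoid targets examined (Dusp1, Glul, Fkbp5, Per1, Tsc22d3 and Sgk1) then had higher values with dexamethasone, by 1.71 to 4.26 on the log2 scale. Under the opposite reading each higher or lower below would swap. That Fabp4 and Angptl4 lie on opposite sides, and that Angptl4 lies opposite to those 6 targets, holds for either reading.

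Of the 8 measured genes, 7 had a difference above 0 and Angptl4 had one below 0, with a median of 0.71; with the sign turned the counts are 1 and 7. Over all features 68.2% of differences were above 0 and 31.8% below. The 3 dexamethasone values lay wholly above the 3 vehicle values for Fabp4, Lpl and Pdk4, where 9.95% of all features with 6 values did so, and wholly below for Angptl4, where 7.29% did. The limma fit over all features called 0% of them at a Benjamini-Hochberg adjusted p under 0.05, and so 0 of the 8; at an unadjusted p under 0.05 it had 1468, which is 5.43%. After probes with a dim, missing or extreme value on any array were left out, 6 of the 8 remained and limma called 1, Fabp4, beside 0.169% of all features; that call was lost when any 1 vehicle array, dexamethasone replicate 2 or dexamethasone replicate 3 was left out, and kept without dexamethasone replicate 1. Because the genes were picked with this contrast in view, nothing is read from these shares.

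**Figure D1:**
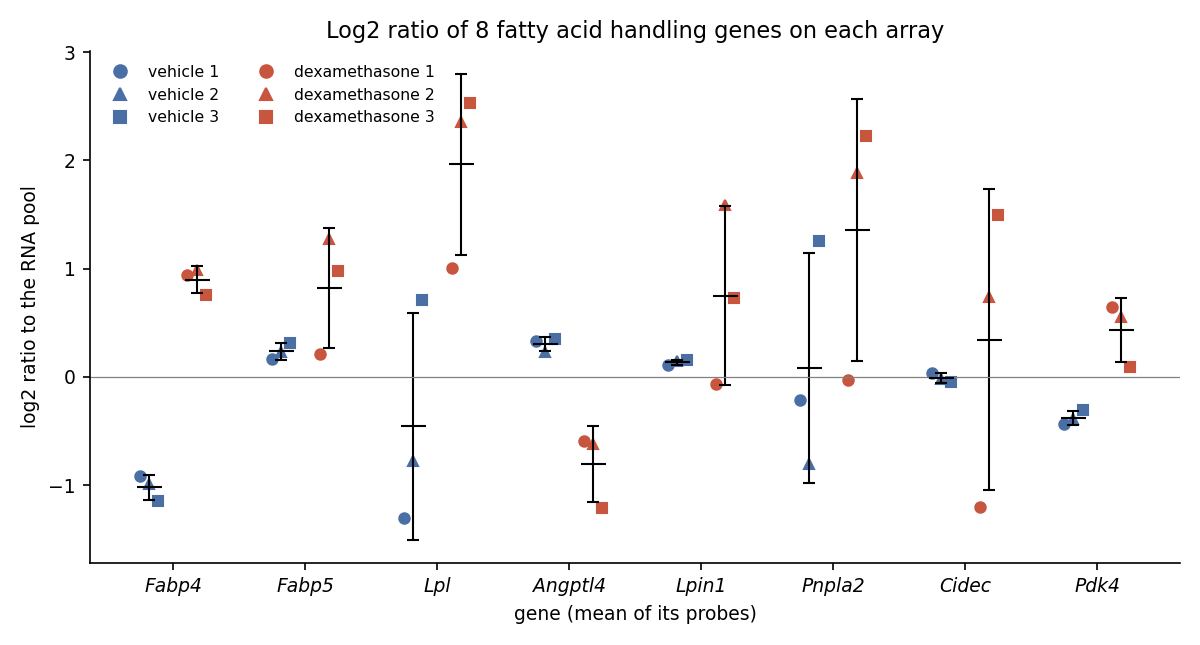
Log2 ratio to the RNA pool (vertical axis) on each of 6 arrays for 8 genes, each the mean of its probes; marker shape gives the replicate, colour the group, and bars the mean ± SD of 3 arrays. Fabp4, Lpl and Pdk4 have all dexamethasone values above the vehicle values and Angptl4 has all below, while the dexamethasone values of Lpin1, Pnpla2 and Cidec spread by 0.83, 1.21 and 1.39 (SD).

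Fabp4 encodes the adipocyte fatty acid binding protein, a small carrier of fatty acids also known from macrophages and endothelium. Its single probe, mMC026407, read -0.92, -0.99 and -1.15 on vehicle arrays 1 to 3 and 0.94, 0.99 and 0.75 on dexamethasone arrays 1 to 3. As deposited, the groups lay far apart and each was tight, including the arrays with many dim spots. Vehicle averaged -1.02 ± 0.12 and dexamethasone 0.89 ± 0.12 (SD, n = 3 for both), a difference of 1.91 ± 0.18 (SE), or 3.77-fold. None of the 6 values was missing or equal to a small whole-number ratio. In the arrays with few dim spots (vehicle 1, vehicle 2 and dexamethasone 1) the difference was 1.89, and in the other 3 arrays it was 2.02. Each set has a single array of vehicle or of dexamethasone, so these differences have no spread. The gene was also chosen with these values known, so their closeness is a description. After median centring the difference was 1.61, and the groups still did not overlap. Their SDs were then larger, 0.27 in vehicle and 0.39 in dexamethasone.

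Fabp5, the epidermal relative of Fabp4, gave a different picture. The mean of its 2 probes was 0.16, 0.23 and 0.31 in vehicle and 0.21, 1.28 and 0.98 in dexamethasone. Dexamethasone 1 fell within the vehicle range, and the other 2 dexamethasone arrays were higher. The difference of 0.59 ± 0.33 (SE) was 0.01 in the set with dexamethasone 1 and 0.81 in the other set, and it turned to -0.15 after quantile normalization. Probe mMC002962 differed by 0.36 ± 0.23 (SE) and probe mMR028770 by 0.82 ± 0.42 (SE).

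In the RefSeq annotation of GRCm38.p6, Fabp5 and Fabp4 lie in the same cluster on chromosome 3 with 4 annotated genes between them. The array's own build is not given in the sources used here. Fabp9, a relative expressed in testis, is next to Fabp4 and had values of 0.03, 0.04 and 0.60 in vehicle and -0.06, 0.51 and 1.11 in dexamethasone. Its groups overlapped, with a difference of 0.30 ± 0.38 (SE). Fabp12, on the other side of Fabp4, was read on 3 vehicle arrays and on dexamethasone 1 alone, with 2.94 there against 1.21 to 3.77 in vehicle. The genes flanking Fabp5, a pseudogene (Gm17877) and a long noncoding RNA (Gm33365), had no single-symbol probe. Of Fabp4, Fabp5 and Fabp9, Fabp4 was the gene whose groups did not overlap; differences between these genes were not tested.

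Cd36, a membrane receptor that takes up long-chain fatty acids, could not be compared. Its probe mMC022070 had a value on 3 arrays: 12.6 on vehicle 3, beyond any plausible log2 ratio, and 1.74 and 2.38 on dexamethasone 1 and 2. The value on dexamethasone 1 equalled a ratio of small whole numbers. Acsl1, which activates long-chain fatty acids by joining them to coenzyme A, had no probe with its symbol.

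Lpl encodes lipoprotein lipase, which releases fatty acids from lipoprotein triglycerides. The mean of its 2 probes was -1.31, -0.77 and 0.71 in vehicle and 1.01, 2.36 and 2.53 in dexamethasone. The groups did not overlap, but vehicle 3 stood well above the other vehicle arrays. The difference of 2.42 ± 0.70 (SE), or 5.35-fold, was 2.05 and 1.73 within the array sets. Both Lpl probes held dim values: 2 of the 6 values of mMR027543, the 2.81 read on both dexamethasone 1 and dexamethasone 3, equalled whole-number ratios, as did 1 value of mMC023651. The groups of mMR027543 were apart (3.19 ± 0.73, SE), while those of mMC023651 overlapped (1.65 ± 0.90, SE), since dexamethasone 1 read -0.80 there, close to vehicle 2 at -0.85.

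Angptl4, the inhibitor of lipoprotein lipase and a known target of both PPARs and the glucocorticoid receptor, had values of 0.33, 0.23 and 0.35 in vehicle and -0.59, -0.62 and -1.21 in dexamethasone. All dexamethasone arrays were lower than all vehicle arrays, and dexamethasone 3 was the lowest. The means were 0.30 ± 0.07 and -0.81 ± 0.35 (SD, n = 3 each). The difference was -1.11 ± 0.24 (SE), a 2.16-fold lower ratio, and the SD of the dexamethasone group was larger than that of vehicle. Its 2 probes had the same direction and different sizes. Probe mMA032872 read 0.26, 0.18 and 0.29 in vehicle and -0.57, -1.21 and -1.80 in dexamethasone, and mMR030693 read 0.41, 0.27 and 0.40 against -0.62, -0.03 and -0.62. On dexamethasone 1 the probes agreed closely, and on dexamethasone 2 and 3 they were more than 1 log2 unit apart. Neither probe had a missing or whole-number value, the difference was -0.87 and -1.26 within the array sets, and it was -1.42 after median centring and -2.03 after quantile normalization.

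**Figure D2:**
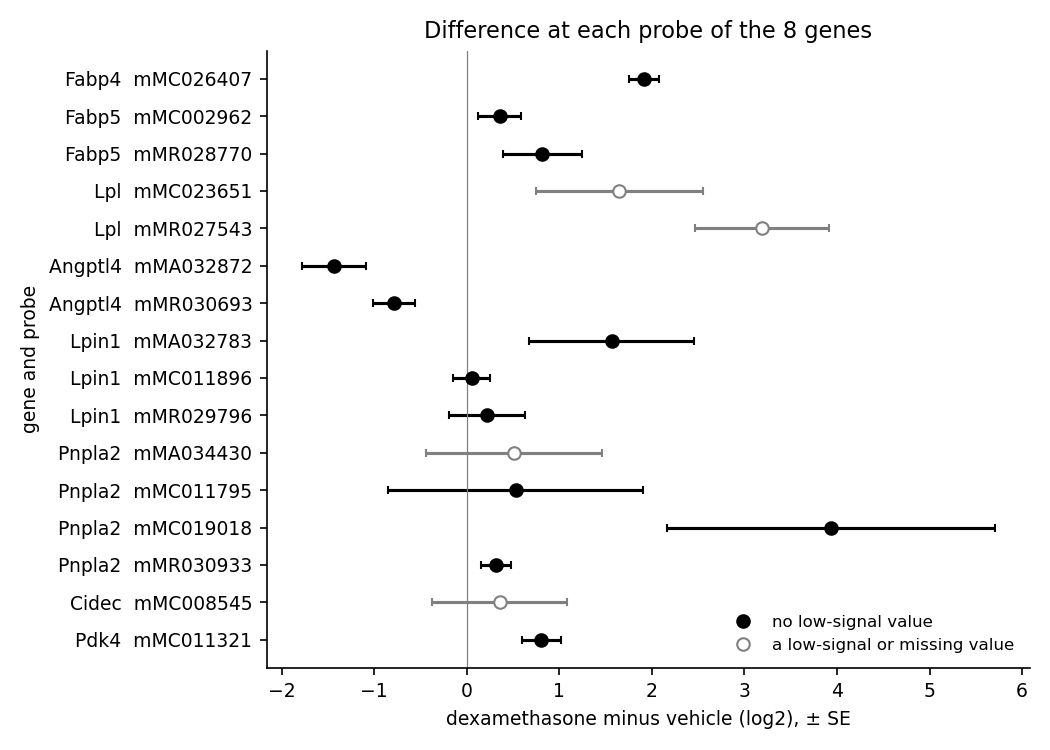
Dexamethasone minus vehicle difference (log2, horizontal axis, ± SE of limma) at each of the 16 probes of the 8 genes; open symbols have a missing or small whole-number value on at least 1 array. Both Angptl4 probes lie below 0 (-1.44 and -0.78), and the 4 Pnpla2 probes run from 0.32 to 3.94.

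Lpin1 encodes lipin 1, a phosphatidate phosphatase of triglyceride synthesis that also acts as a coactivator of transcription. Its 3 probes averaged 0.11, 0.14 and 0.16 in vehicle and -0.07, 1.58 and 0.72 in dexamethasone. Dexamethasone 1 was below every vehicle array and the other dexamethasone arrays were above. The difference of 0.61 ± 0.45 (SE) was -0.19 in the array set of dexamethasone 1, 1.00 in the other set and -0.11 after quantile normalization. It came largely from probe mMA032783, which differed by 1.56 ± 0.89 (SE), while mMC011896 and mMR029796 differed by 0.05 ± 0.20 and 0.22 ± 0.41 (SE). The RefSeq promoter table (GRCm38.p6) held 8 entries for 6 of the 10 genes; Fabp4, Fabp5, Lpl and Angptl4 had no entry. The 250 bases before the Lpin1 start at chr12:16610967-16611216 (minus strand) are shown because they were the single member window with the glucocorticoid receptor hexamer; capitals mark that hexamer, AGAACA, here on the reverse strand at -163 to -158, and the nuclear receptor hexamer AGGTCA at -74 to -69.
Lpin1 promoter: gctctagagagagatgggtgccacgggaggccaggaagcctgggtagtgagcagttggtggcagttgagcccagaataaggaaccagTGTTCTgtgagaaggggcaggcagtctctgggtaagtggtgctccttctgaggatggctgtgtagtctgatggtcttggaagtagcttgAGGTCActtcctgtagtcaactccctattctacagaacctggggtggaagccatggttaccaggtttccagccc

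Pnpla2 encodes adipose triglyceride lipase, which takes the first fatty acid off stored triglyceride. Its 4 probes averaged -0.22, -0.80 and 1.26 in vehicle and -0.03, 1.88 and 2.22 in dexamethasone. The groups overlapped because vehicle 3 was above dexamethasone 1. The difference of 1.28 ± 0.84 (SE) was 0.48 in the array set of dexamethasone 1 and 0.79 in the other set, and 0.64 with the array set as a block. The probes disagreed in size. Probe mMC019018 read -1.93, -2.18 and -0.34 in vehicle and -1.31, 4.86 and 3.81 in dexamethasone. Probe mMR030933 was much steadier, with -0.63, -0.40 and -0.51 in vehicle and -0.25, -0.29 and -0.06 in dexamethasone. Its groups did not overlap and differed by 0.32 ± 0.16 (SE), the size of the median over all features. Probes mMC011795 and mMA034430 differed by 0.53 ± 1.38 and 0.51 ± 0.95 (SE), the latter without a value on dexamethasone 2, so the gene mean on that array rests on the other 3 probes.

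Cidec, a lipid droplet protein that lets droplets grow, read 0.04, -0.02 and -0.05 in vehicle and -1.20, 0.74 and 1.495 in dexamethasone at its probe mMC008545. The vehicle values were nearly equal, while the dexamethasone values lay on both sides of them. The difference of 0.36 ± 0.73 (SE) was -1.21 and 1.17 within the array sets, -0.12 after quantile normalization and -0.22 without dexamethasone replicate 3.

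Pdk4 encodes a kinase that shuts down pyruvate dehydrogenase and so turns cells from glucose to fatty acid use. Its probe mMC011321 read -0.43, -0.39 and -0.31 in vehicle and 0.65, 0.55 and 0.09 in dexamethasone. All dexamethasone arrays were higher, dexamethasone 3 least so. The difference was 0.81 ± 0.22 (SE), or 1.75-fold; it was 1.06 and 0.63 within the array sets. After median centring it was 0.50, and the groups then overlapped, dexamethasone 3 reading -0.31 and vehicle 2 -0.27. The 250 bases before the Pdk4 start at chr6:5496279-5496528 (minus strand, GRCm38.p6, RefSeq) are shown as the promoter of the sole gene with groups apart that had an entry; none of the motifs searched is in them, so they carry no capitals.
Pdk4 promoter: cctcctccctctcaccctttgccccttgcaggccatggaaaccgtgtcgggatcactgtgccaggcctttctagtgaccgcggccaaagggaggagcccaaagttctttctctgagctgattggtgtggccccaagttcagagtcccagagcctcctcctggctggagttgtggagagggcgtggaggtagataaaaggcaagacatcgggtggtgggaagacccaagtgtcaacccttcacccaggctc

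The motifs were searched on both strands in the 250 bases before each start, over 32851 entries. The core of the palindromic glucocorticoid receptor motif (GNACA and TGTNC with NNN between) was in 0.387% of all entries and in 0 of the 8 member entries, and the PPAR direct repeat (AGGTCA, any base, AGGTCA) in 0.0335% and 0. The hexamer AGAACA was in 16.1% of all entries and in 1 of 8, and AGGTCA in 14.0% and in 2, those of Lpin1 and Cd36; the direct repeat holds AGGTCA within it. The C/EBP motif TTGCNNAA was in 9.56% and in 1, a Cidec entry. The missing entries of Fabp4 and Angptl4 leave the genes with the clearest separation outside this search.

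**Figure D3:**
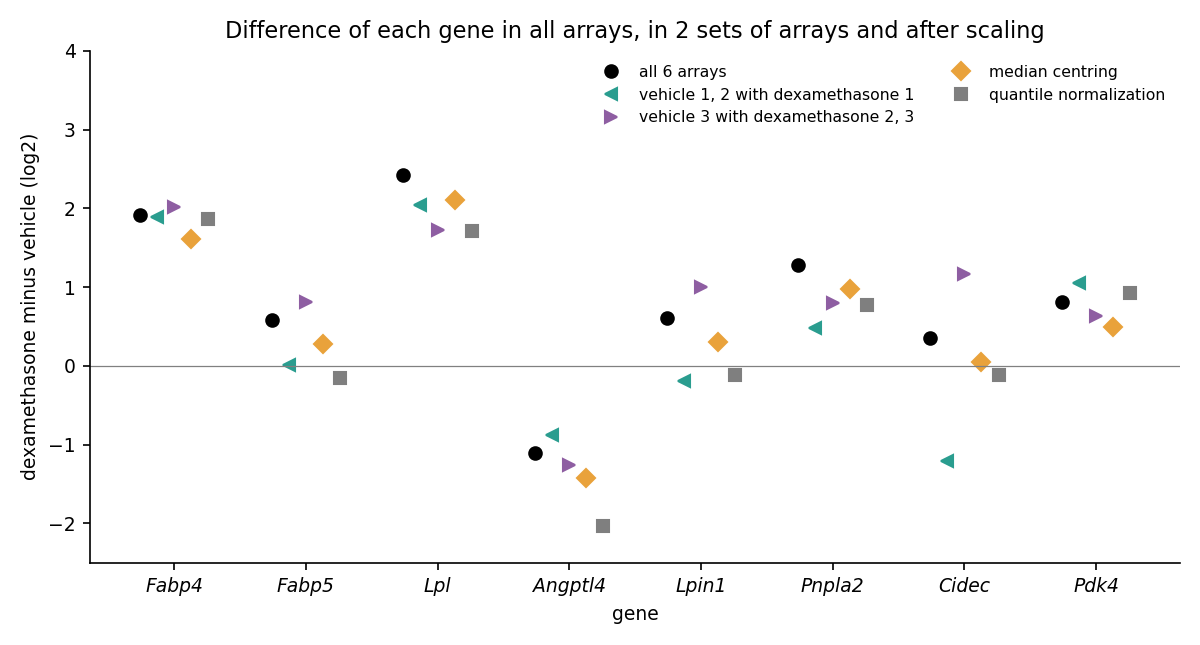
Dexamethasone minus vehicle difference (log2, vertical axis) of the 8 genes in all 6 arrays, in the 2 sets of arrays taken apart, after median centring and after quantile normalization. Fabp4, Lpl, Pnpla2 and Pdk4 stay above 0 and Angptl4 below 0 at each symbol, while Fabp5 and Lpin1 turn below 0 after quantile normalization, Lpin1 also in the set with dexamethasone 1, and Cidec in both.

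By a root mean square difference of log ratios over the 6 arrays, among 13025 genes without a dim or missing value, the genes most like Fabp4 were Nrip1 (0.106), Foxred2 (0.189) and Ctla2a (0.192). Nrip1, which encodes a corepressor of nuclear receptors, read -0.90, -0.97 and -0.97 in vehicle and 0.78, 0.94 and 0.66 in dexamethasone, close to Fabp4 on every array. The genes most like Angptl4 were Traf5 (0.0618), an adaptor of TNF receptors, Ptgfr (0.113), the prostaglandin F receptor, and Dixdc1 (0.145). Traf5 read 0.44, 0.23 and 0.42 against -0.64, -0.60 and -1.27, so dexamethasone 3 was the lowest there too. All 6 points of each comparison come from the same 6 arrays, whose shifts the genes share. The genes were picked as the nearest on these same values, so their closeness follows from the choice. Shared regulation was not tested.

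Other genes of fatty acid handling were taken from 7 lists chosen by function, 134 genes in all, of which 124 had a probe and 121 were tested. limma called 0 of the 121, 0 higher and 0 lower, at an adjusted p under 0.05, beside 0% of all features. Before adjustment, 6 were higher and 3 lower at p under 0.05, beside 4.43% and 0.995% of all features. The median difference of the 121 was 0.14, below the 0.32 of all features; 72 were above 0 and 49 below, and these counts change place with the sign turned. Of the 111 with 6 values, 15 had all dexamethasone arrays above and 11 all below vehicle, against 9.95% and 7.29% of all features.

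Among 25 genes of oxidation and pyruvate dehydrogenase control, 1 was higher and 1 lower at an unadjusted limma p under 0.05. Over all features 4.43% were higher and 0.995% lower. The median difference of the 25 was -0.03. Pdp1, the phosphatase that reverses the action of the PDK kinases, read -1.72, -1.51 and -1.16 in vehicle and 0.60, 0.42 and 0.38 in dexamethasone. Its groups were far apart, by 1.94 ± 0.22 (SE) or 3.83-fold, yet its limma adjusted p was 0.204, and over all settings changed singly it ran from 0.0634 to 0.989. With the filter on dim probes and without dexamethasone replicate 1 together it was 0.0370. Pdk1, a relative of Pdk4, differed by -0.89 ± 0.33 (SE), on the other side from Pdk4, and Acadm, a dehydrogenase of medium-chain fatty acids, by -0.38 ± 0.20 (SE).

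Among 12 PPAR receptors and coregulators, 2 were higher at an unadjusted limma p under 0.05, beside 4.43% of all features. The median was 0.26, or -0.02 after the filter on dim probes. Nrip1 differed by 1.74 ± 0.17 (SE), or 3.35-fold, with a limma adjusted p of 0.162. It was 0.0401 after probes with any dim, missing or extreme value were left out, and over all settings changed singly it ran from there to 0.989. That pass held without dexamethasone replicate 1 (0.0326). It was lost without any 1 of the vehicle arrays (0.319 to 0.472), without dexamethasone replicate 2 (0.134) or replicate 3 (0.0950), and with either block or scaling added to the filter. Ppard, the widely expressed PPAR, differed by 0.47 ± 0.17 (SE), and Rxra, a partner of the PPARs, by 0.91 ± 0.52 (SE).

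Among 19 genes of activation and triglyceride synthesis, 1 was higher and 2 were lower at an unadjusted limma p under 0.05. Over all features 4.43% were higher and 0.995% lower. The median of the 19 was 0.17. Gpam, which starts glycerolipid synthesis at the mitochondrion, read 2.52, 0.91 and 1.47 in vehicle and -0.02, -0.56 and 0.06 in dexamethasone. Its groups did not overlap and differed by -1.81 ± 0.48 (SE), with vehicle 1 far above the other vehicle arrays; after the filter on dim probes its unadjusted limma p of 0.0123 became 0.139. The acyl-CoA synthetases Acsl4 (0.65 ± 0.19, SE) and Acsl3 (-0.65 ± 0.22, SE) lay on opposite sides. Both had groups that did not overlap.

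Of 17 genes of lipid droplets and lipolysis, 1 was higher at an unadjusted limma p under 0.05, beside 4.43% of all features. The median was 0.57, or 0.10 after the filter on dim probes. Mgll, the monoglyceride lipase, differed by 2.17 ± 0.65 (SE), with -0.57, -0.69 and 0.48 in vehicle and 0.96, 3.03 and 1.72 in dexamethasone. Plin4, a droplet coat protein, differed by 0.57 ± 0.23 and Cideb, a relative of Cidec, by 1.86 ± 1.25 (SE). Of 19 genes of uptake and binding, 1 was higher at an unadjusted limma p under 0.05, beside 4.43% of all features, and the median was 0.15. That gene, Vldlr, a lipoprotein receptor, differed by 0.88 ± 0.33 (SE), Got2 by 1.04 ± 0.53 and Scp2 by -0.29 ± 0.18.

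None of the 13 genes of lipoprotein lipase control or the 16 of synthesis and desaturation reached an unadjusted p under 0.05 in the limma fit. Lmf2, a relative of the lipase maturation factor Lmf1, differed by 0.58 ± 0.29, Apoe by 1.37 ± 0.74 and the protease gene Furin by 0.85 ± 0.60 (SE). Me1, which makes NADPH for lipid synthesis, differed by -0.73 ± 0.32, the desaturase gene Fads1 by -0.29 ± 0.17 and the elongase gene Elovl1 by 0.48 ± 0.31 (SE).

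**Figure D4:**
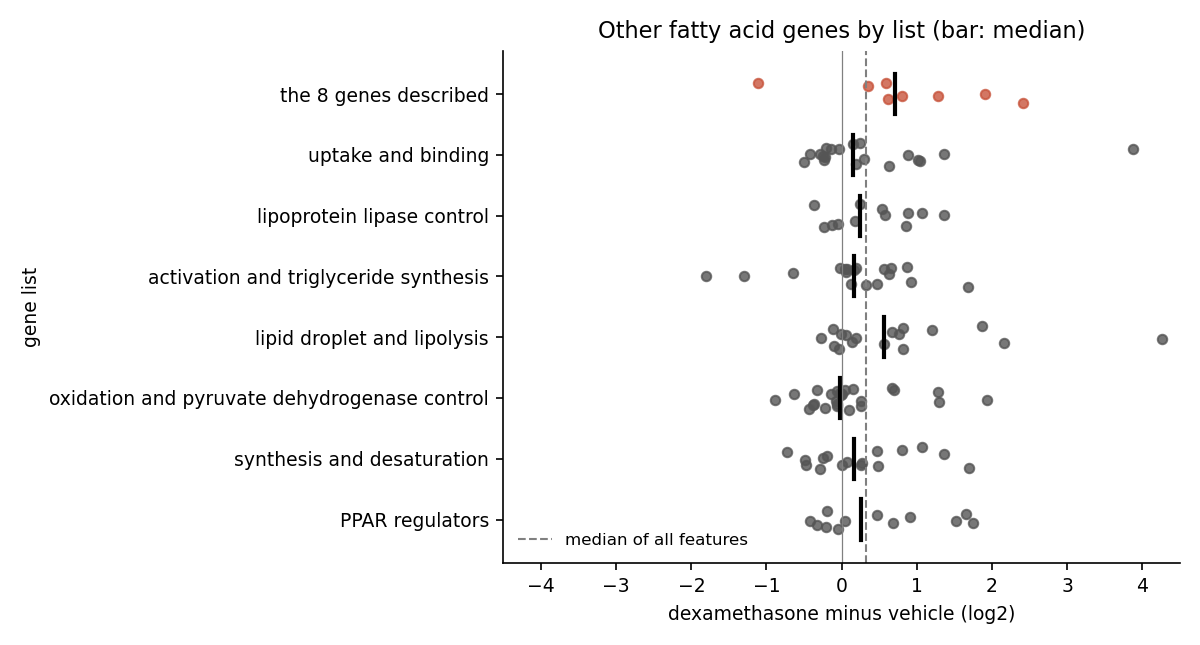
Dexamethasone minus vehicle difference (log2, horizontal axis) of the 8 genes and of the genes of 7 functional lists, 1 point a gene, with each list's median as a bar and the median of all features, 0.32, as a dashed line; 2 genes beyond 4.5 in size lie outside the axis. List medians run from -0.03 (oxidation and pyruvate dehydrogenase control) to 0.57 (lipid droplet and lipolysis).

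Because Fabp4, Lpl and Cd36 are also genes of fat, blood and vessel cells, markers of these were read. limma called 0 of 8 mature adipocyte, 0 of 10 macrophage and 0 of 9 endothelial markers at an adjusted p under 0.05, beside 0% of all features. It called 0 of the 6 known glucocorticoid targets too, so these counts do not show that the markers were unchanged. At an unadjusted limma p under 0.05 the endothelial list had 1, Esam (3.39 ± 0.79, SE), and the others 0, beside 5.43% of all features. The filter on dim probes kept 2 adipocyte, 5 macrophage and 3 endothelial markers, and left out Esam. The median log ratio of the adipocyte list was -0.63, -0.65 and 0.86 in vehicle and -0.49, 1.28 and 1.74 in dexamethasone. That of the macrophage list was -0.73, -0.89 and 0.69 against -0.78, 1.66 and 1.11, and that of the endothelial list -0.11, -0.17 and 1.13 against 0.03, 2.51 and 1.93. All 3 lists were high on vehicle 3, dexamethasone 2 and dexamethasone 3, the arrays with many dim spots, and low on the other 3. Lpl and Pnpla2 were also higher on vehicle 3 than on vehicle 1 and 2. With the array set as a block their differences were 1.89 and 0.64, against 2.42 and 1.28 without it. Fabp4 on vehicle 3 was the lowest of the 3 vehicle arrays. What lies behind these patterns was not tested. The fibroblast and mesenchymal list, typical of lines such as this, had medians of 0.09 to 0.24 in vehicle and -0.12 to 0.15 in dexamethasone, and 0 of its 10 genes was called by limma or reached an unadjusted p under 0.05.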

How the data were processed

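The deposited series table holds 1 value per probe and array. The authors deposited log2 ratios of the 2 channels, made with limma per the submitters' processing notes; the log2 scale is inferred from the values. The 4 deposited columns other than vehicle 1 and 2 were read the same way but recorded as a score, since each holds values beyond 100 in size. The sources used here name no background correction, normalization, filter or direction. Symbols came from the supplied platform annotation (29456 with 1 symbol, 760 with several, 8251 unlisted; Entrez matching changed 0 symbols). Single-symbol probes were averaged per gene. Features with 2 values per group were fitted with limma 3.58.1 in R 4.3.3, without block or further normalization, two-sided, with Benjamini-Hochberg adjustment over all features at 0.05; SE is the moderated standard error. The fit was tested on simulated data. The number of arrays limits precision. Each culture was read on 1 array, so the p-values measure a spread in which cultures and arrays cannot be told apart. Over all probes, vehicle 1 had a Spearman correlation of 0.52 with dexamethasone 1 and of 0.07 with vehicle 3.

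The members and lists were chosen with earlier results of these data known. Named were all members, up to 3 genes per list by p, the 6 glucocorticoid targets, the 3 genes nearest Fabp4 and Angptl4, and the neighbours of Fabp4 and Fabp5. The filter on dim probes left out 15355 probes with a missing value, a whole-number ratio from 1 to 10 or a size beyond 10 on any array. It was known to matter from those earlier results, as was the split into 2 array sets. No protein sequences were used.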

Additional observations from a re-analysis of the deposited data

How the results depend on the processing

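Over 19 alternatives the difference of Fabp4 ran from 1.61 to 2.02 and that of Angptl4 from -2.03 to -0.87. That of Pdk4 ran from 0.50 to 1.06, that of Pnpla2 from 0.48 to 1.97 and, over 18, that of Lpl from 1.71 to 3.06. Several alternatives, such as the replicate block and the robust prior, cannot change a difference of means where all 6 arrays have a value. Fabp4 kept 1.91 in both of these, so the alternatives are not 19 independent checks. Quantile normalization turned Fabp5 (-0.15), Lpin1 (-0.11) and Cidec (-0.12) below 0 and left 4 of 8 genes above 0. Cidec was also below 0 with the array set block (-0.021) and in the set of dexamethasone 1 (-1.21), where Lpin1 was -0.19. With 1 array left out Cidec ran from -0.22 (without dexamethasone replicate 3) to 1.13 (without dexamethasone replicate 1). limma's 0 calls over all features became 29 with the filter on dim probes, 5 with values on all 6 arrays and 2 with 1 value per group; the pathway lists had 1 call with the filter. Of the 8 genes, the filter kept 6 and limma called 1 of them, Fabp4, beside 0.169% of all features. Fabp4 was picked with this contrast in view, so nothing is read from its calls here or below. Added after seeing the data, the filter without 1 array gave 0 to 934 calls over all features and 0 to 9 in the pathway lists: 934 and 9 without dexamethasone replicate 1, 5 and 0 without replicate 2, and 0 without any other array. Fabp4 was called there without dexamethasone replicate 1 and in no other of these. With either block, median centring or quantile normalization added to the filter, limma called 0. The cause was not tested. Same-numbered arrays had correlations of 0.28, -0.17 and 0.35 between their deviations, vehicle 2 going best with dexamethasone 1 (0.33), so the numbers were not taken as pairs; the replicate block left limma's count at 0, with 1329 features at an unadjusted p under 0.05. Values that were missing, extreme or equal to whole-number ratios limit Lpl, Cidec and Cd36 most, since the filter kept no probe of these genes.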

Other observations

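Further genes are named here after their values were seen. Beside Pdk1, Pdk4 and Pdp1, described above, the kinase genes Pdk2 and Pdk3 differed by 0.10 ± 0.18 and -0.06 ± 0.25 (SE), the phosphatase gene Pdp2 by -0.22 ± 0.44 and Pdha1, a subunit of the enzyme itself, by -0.01 ± 0.19; the groups of all 4 overlapped. The ratio of the heart-type binding protein gene Fabp3 differed by 0.64 ± 0.44 (SE) with overlapping groups, and that of Pparg, the PPAR of fat cell formation, by -0.42 ± 0.29 (SE), also with overlap. The droplet coat gene Plin2 differed by -0.12 ± 0.16 (SE), with all dexamethasone arrays below vehicle. None of these 7 reached an unadjusted p under 0.05 in the limma fit.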
